A study of Mus musculus with 38 samples.

Results

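The cytoplasmic ribosome is assembled from ribosomal RNA and a set of proteins, and the 80 genes described here encode these proteins in the mouse. They were chosen by name: protein-coding genes of the GENCODE vM21 annotation whose symbol is Rpl or Rps with a number and at most 1 further letter (a, l or x), together with Rplp0, Rplp1, Rplp2 and Rpsa. The rule gave 49 genes of the large subunit and 31 of the small subunit, out of 46679 genes in the table of sorted precursors and 47729 in the table of whole marrow. 3 symbols that match the pattern (Rps4l, Rpl32l and Rpl6l) are annotated as pseudogenes and were not members.

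Female C57BL/6 mice aged 6 to 7 weeks received zoledronic acid (ZA, a bisphosphonate that binds bone and blocks osteoclasts), recombinant human G-CSF (the cytokine that drives granulocyte production), both, or neither. The dose of ZA was 100 µg per kg, given by intraperitoneal injection. G-CSF was given daily for 3 days from 2 days after ZA, in doses of 50 µg per kg. RNA was sequenced from marrow cells sorted as Lineage- CD115+ after lineage depletion, called osteoclast precursors, of which sequencing run 1 is used here (3 libraries with both agents, 3 with G-CSF, 1 with ZA and 1 untreated), and from whole marrow (2 libraries with both agents, 3 with G-CSF, 2 with ZA and 2 untreated). The protocols in the labels also mention nude mice in other experiments, but every library is labelled C57BL/6. The labels number the biological replicates and do not say that each is 1 animal, so the p-values refer to the spread among these libraries, which may be technical.

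Most ribosomal proteins are needed in equal numbers, and their mRNAs are among the most abundant of any cell that grows. The mRNAs share a pyrimidine tract at the 5′ end (the TOP motif), through which mTOR signalling sets how much of them is translated. In marrow the supply of ribosomes bears on red cell formation: in humans, loss of 1 copy of RPS19 and of several other members causes Diamond-Blackfan anaemia. These mRNAs have also been copied back into the genome many times, as processed pseudogenes that have no introns and lie far from the parent gene.

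How reads are shared with these copies bears on every value. 77 of the 80 members had at least 1 near-identical copy elsewhere in the genome (at least 90% identical over at least 80% of the copy), with a median of 10 copies per member and up to 92 for Rpl7a. In all, 1112 copies were found, 847 of them listed in the precursor table and 863 in the marrow table. 3 member and copy pairs that carry much of the result in whole marrow are printed here, each as the same stretch of coding sequence of the member and of the copy, 5′ to 3′, from GENCODE vM21 on GRCm38. Capitals mark the bases at which the members of a pair differ.
Rps26: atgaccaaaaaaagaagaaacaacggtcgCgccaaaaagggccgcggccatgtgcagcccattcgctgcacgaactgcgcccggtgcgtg
Rps26-ps1: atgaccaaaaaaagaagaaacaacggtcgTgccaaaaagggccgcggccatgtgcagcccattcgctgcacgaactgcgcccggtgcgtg
Rpl3: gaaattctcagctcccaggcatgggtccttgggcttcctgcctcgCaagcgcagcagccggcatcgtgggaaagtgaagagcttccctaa
Rpl3-ps1: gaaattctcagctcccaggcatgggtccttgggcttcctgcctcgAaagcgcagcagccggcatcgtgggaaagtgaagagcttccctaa
Rpl26: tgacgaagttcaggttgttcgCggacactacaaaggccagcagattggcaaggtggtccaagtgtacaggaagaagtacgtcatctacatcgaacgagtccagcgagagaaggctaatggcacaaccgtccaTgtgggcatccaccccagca
Gm15772: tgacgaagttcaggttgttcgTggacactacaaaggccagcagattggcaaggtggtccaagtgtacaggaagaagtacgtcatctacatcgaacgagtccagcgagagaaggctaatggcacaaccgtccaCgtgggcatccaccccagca

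The Rps26 stretch lies in 2 exons within chr10:128626154-128626478 (minus strand) and the Rps26-ps1 stretch at chr8:107439473-107439562 (minus strand). The Rpl3 stretch lies in 1 exon at chr15:80082485-80082574 (minus strand) and its copy at chrX:13202583-13202672 (plus strand). The Rpl26 stretch lies in 2 exons within chr11:68902430-68903317 (plus strand) and the Gm15772 stretch at chr5:3236586-3236737 (plus strand). Counted from the first base of the start codon, with the member's base first, the whole coding sequences differ by C30T and G270A over 345 bases for Rps26, by C57A and T786C over 1209 bases for Rpl3, and by C177T and T288C over 435 bases for Rpl26, with no gaps. A read can be told apart between member and copy only where it covers one of these bases or sequence outside the coding region. Salmon, which the submitters name, shares reads among transcripts that fit them equally well, so a value of a member and a value of its copies are 2 parts of 1 set of reads.

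A short pyrimidine motif, CTTTC, was more frequent near the start of the transcript among the members than among all genes. In a window of 15 bases before to 15 bases after the RefSeq start (GRCm38.p6, transcribed strand only), the letters CTTTC were present in 17 of the 60 members that the promoter table holds (28.3%), against 1286 of 27025 genes (4.8%). Other pyrimidine runs, such as one in the window of Rps6, were not counted. The windows of Rps2, Rplp0, Rps6, Rps19, Rpl11, Rpl27 and Rpl5, which also appear in the results, lack CTTTC. 2 members that have it are shown, with the match in capitals, at chr10:128626492-128626521 (minus strand) for Rps26 and at chr7:45128731-45128760 (minus strand) for Rpl13a.
Rps26: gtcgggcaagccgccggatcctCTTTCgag
Rpl13a: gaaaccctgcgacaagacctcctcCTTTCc

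The run 1 precursor libraries held 21049594 to 33190752 estimated counts and the marrow libraries 6236394 to 16152105. The sort was visible in the markers: the summed level of 15 erythroid genes was 319 to 6969 CPM (counts scaled to a common library total) in precursors, against 195935 to 283511 CPM in run 1 marrow, and that of 12 monocyte and macrophage genes 12706 to 16572 CPM, against 5861 to 6492 CPM. The defining gene Csf1r, which encodes CD115, stood at 462 to 533 CPM in precursors and 77.8 to 118 CPM in marrow. The 3 run 1 marrow libraries (G-CSF 2, ZA 2 and untreated 2) are the libraries of the marrow table requantified: their totals differ by at most 1.6 counts, so they were never counted beside them as further replicates. In run 2, several libraries went against their tissue label: 7 of 15 labelled as precursors had over 10000 CPM of the haemoglobin gene Hbb-bs, against at most 2941 CPM in run 1 precursors. Run 2 therefore entered only alternative tests. In that of precursors against marrow, 0 members were called. Libraries of both tissues may stand on each side of it, so this count says nothing about the members. Another joined libraries of both runs, with run as a term, for the precursor treatments, and its counts are not given here.

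Summed over the 80 members, every run 1 precursor library stood above every marrow library in own reads. Own reads of the members were 4.06% to 4.96% of the estimated counts in run 1 precursors. In whole marrow they were 3.05% and 2.95% with both agents, 3.95%, 3.62% and 3.19% with G-CSF, 3.23% and 3.42% with ZA, and 3.10% and 2.88% untreated. With the reads of the copies added, the shares were 5.53% to 6.72% in precursors, and in marrow 4.68% and 4.48% with both agents, 6.22%, 5.55% and 4.77% with G-CSF, 4.36% and 4.68% with ZA, and 4.16% and 3.89% untreated. On this last share the libraries with G-CSF alone and those with both agents each lay above the untreated ones, and those with both agents overlapped those with ZA.

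**Figure D1:**
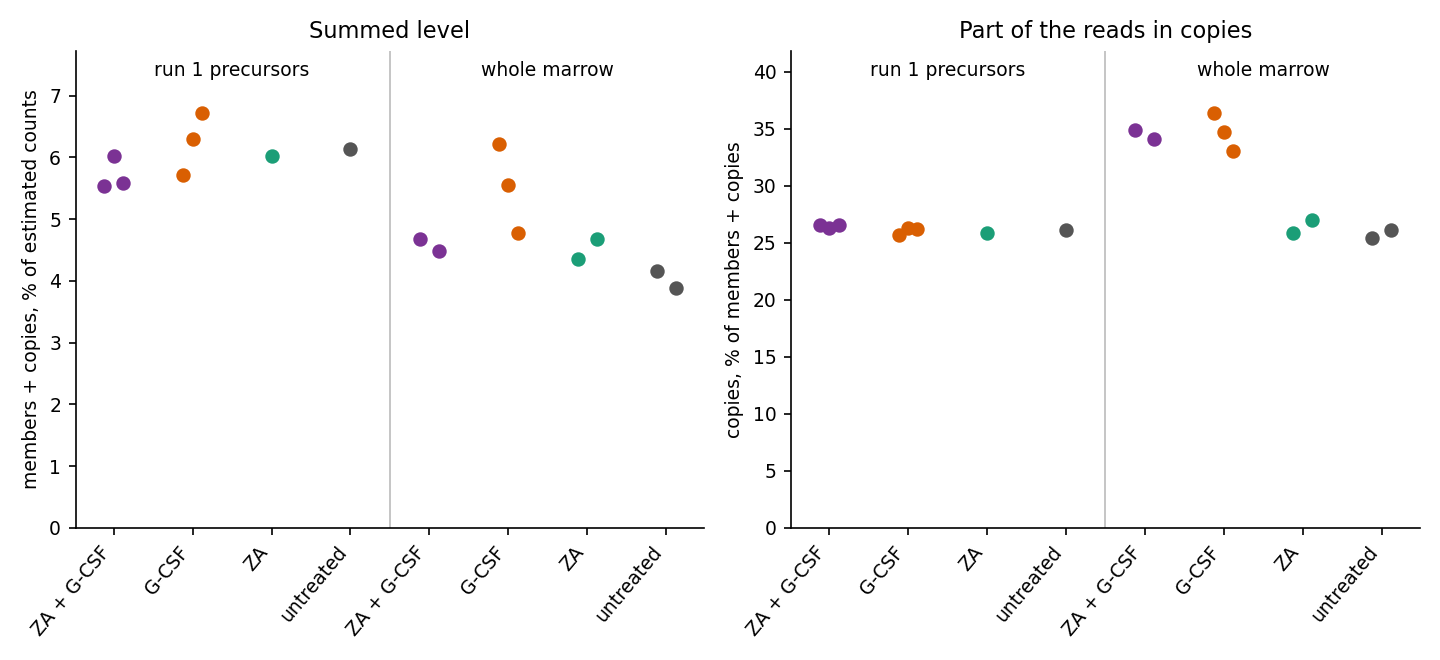
Left, members plus near-identical copies as a percent of all estimated counts of a library; right, the part of those reads assigned to copies, in percent. Each point is 1 library, run 1 precursors left of the line and whole marrow right of it; in marrow, the 5 libraries given G-CSF sit at 33.1% to 36.4% in copies and the other 4 at 25.4% to 27.0%.

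Per length, in TPM (transcript abundance scaled for length and to a common total), the members spread over a wide range of levels. The highest was Rps15a, a small subunit protein, at a mean of 4521 TPM in run 1 precursors (3001 to 5480 TPM in 8 libraries) and 3511 TPM in whole marrow (2073 to 4147 TPM in 9 libraries). Rpl6, of the large subunit, followed at 2771 TPM in precursors (1849 to 3327 TPM) and 2078 TPM in marrow (818 to 2794 TPM), so its range overlapped that of Rps15a in both. Further members near the top were Rps19 (1853 TPM) and Rpl41, the shortest ribosomal protein (1715 TPM), in precursors, and Rpl41 (1586 TPM) and Rplp1 (1464 TPM) in marrow, with ranges that overlap each other and that of Rpl6. The stalk proteins, which recruit elongation factors, lay close together, Rplp1 at 1634 TPM, Rplp2 at 1395 TPM and Rplp0 at 1338 TPM in precursors, and 1464, 1022 and 842 TPM in marrow. In counts the order was another: in precursors Rps15a had 310 to 357 CPM (scaled as in the tests below), against 2121 to 2598 CPM for Rplp0. TPM also rest on the transcript length used in quantification, which was not checked, so the high TPM of Rps15a do not show it to have the most reads.

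At the low end, 2 kinds of members met. Rpl5, which with Rpl11 and 5S RNA forms the particle that binds Mdm2, stood at 18.8 TPM in precursors and 6.68 TPM in marrow, and Rpl12 at 31.2 and 13.8 TPM, while nearly all reads of these families were assigned to copies (812 and 457 TPM for the copies of Rpl5). Own reads of Rpl5 were 7.67 to 19.6 CPM in whole marrow, against 473 to 1170 CPM with copies, of which the transcribed pseudogene Gm15500, 100.0% identical over its aligned length, held 459 to 1151 CPM. The paralogs restricted to other tissues were low without such copies: Rpl3l, the striated muscle form of Rpl3, averaged 0.188 TPM in precursors and 0.597 TPM in marrow, and Rpl39l, a form of the male germ line, 0.302 and 0.307 TPM. Rpl10l, also of the male germ line, had no counts in any of the 9 marrow libraries, which allows up to 0.186 to 0.481 CPM per library at 3 counts, and 0.148 CPM in 1 of the 8 precursor libraries. Such floors cover counting error only.

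In the whole marrow libraries given G-CSF, a larger part of the estimated counts of several families was assigned to copies. The 5 libraries given G-CSF, with or without ZA, had a median of 31.5% to 39.1% of a family's reads in copies, over the families of the members, against 8.49% to 12.5% in the 4 libraries not given it. The mean share in copies was over 20 percentage points higher with G-CSF for 9 of 79 members and over 20 points lower for 0. The 9 were Rps2 (97.9% with G-CSF against 2.94% without), Rpl3 (81.2% against 0.475%), Rps26 (79.9% against 0.25%), Rps18 (68.4% against 0.553%), Rpl26 (64.6% against 0.596%), Rpl29 (70.3% against 12.4%), Rpl35a (60.4% against 20.2%), Rpsa (59.3% against 33.2%) and Rpl21 (78.0% against 55.0%).

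Rps2, a small subunit protein at the entry of the mRNA channel (chr17:24718116-24721929, plus strand), had the widest gap between the 5 libraries given G-CSF and the other 4. Its own reads were 22.3 and 19.1 CPM with both agents and 20.6, 26.0 and 50.6 CPM with G-CSF, against 986 and 855 CPM with ZA and 960 and 661 CPM untreated (CPM here are scaled by trimmed mean of M values, TMM, a scaling that takes most genes as unchanged). Its copy Rps2-ps10 was the mirror image, with 1215 and 1019 CPM with both agents and 1606, 1357 and 1265 CPM with G-CSF, against 6.34 and 4.97 CPM with ZA and 1.58 and 2.77 CPM untreated. Neither series overlapped between libraries with and without G-CSF. Added up with all copies, Rps2 reads were 1262 and 1067 CPM with both agents, 1664, 1418 and 1344 CPM with G-CSF, 1014 and 882 CPM with ZA, and 989 and 683 CPM untreated, so that the sum was highest where the gene's own reads were near their lowest.

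Rpl3, which lies near the peptidyl transferase centre, had 135 and 126 CPM of own reads with both agents and 225, 214 and 176 CPM with G-CSF, against 968 and 941 CPM with ZA and 1181 and 928 CPM untreated. Rpl3-ps1 held 624 and 647 CPM and 932, 879 and 658 CPM in the same libraries given G-CSF, against 4.96 and 1.92 CPM with ZA and 2.26 and 0.0 CPM untreated. Rps26, a protein of the mRNA exit channel mutated in Diamond-Blackfan anaemia, had 222 and 127 CPM with both agents and 45.0, 37.3 and 63.9 CPM with G-CSF, against 465 and 433 CPM with ZA and 417 and 323 CPM untreated. Its copy had 251 and 334 CPM with both agents and 679, 560 and 404 CPM with G-CSF, and at most 2.26 CPM in the other 4 libraries. Rps18, in the head of the small subunit, had 124 and 115 CPM of own reads with both agents and 190, 217 and 167 CPM with G-CSF, against 631 and 687 CPM with ZA and 903 and 616 CPM untreated, and its copies Gm10260 and Rps18-ps3 were at most 2.07 CPM in the libraries without G-CSF. For these members too the own reads and the copy's reads each separated the 5 libraries from the 4.

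**Figure D2:**
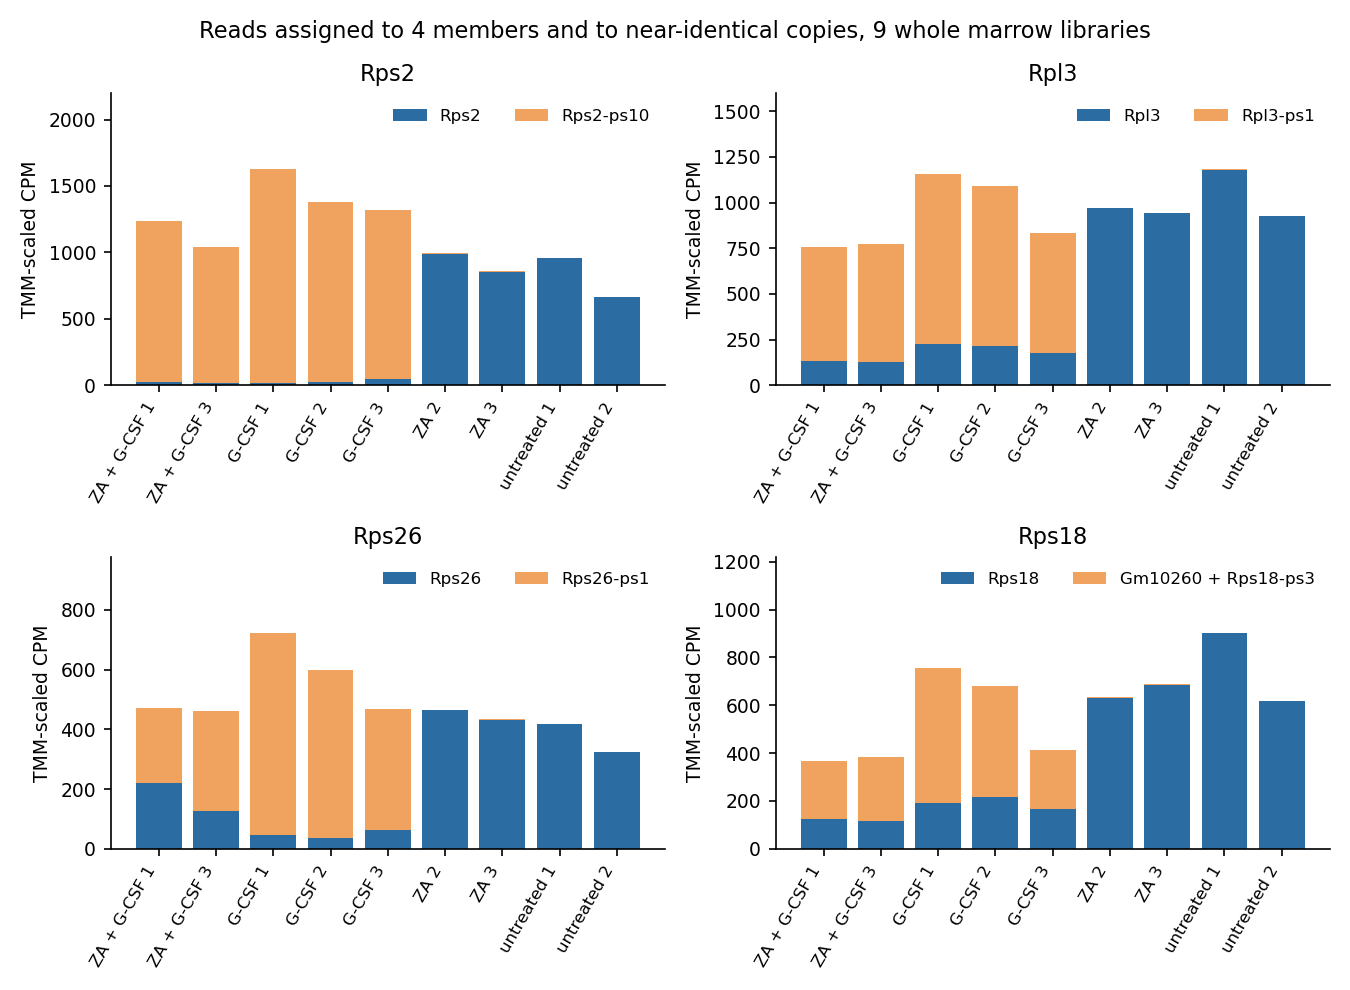
Stacked bars of TMM-scaled CPM in each of the 9 whole marrow libraries, own reads of Rps2, Rpl3, Rps26 and Rps18 at the bottom and reads of the named copies on top. In the 5 libraries given G-CSF most of each bar is copy; in the other 4 almost all of it is the member, while the bar heights differ much less.

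Other copies went the opposite way. Of 156 copies tested in marrow, 24 were higher and 8 lower with G-CSF than untreated by edgeR's quasi-likelihood test (Benjamini-Hochberg adjusted p under 0.05), where 11.8% of all genes were called. These calls are not all separate, as some copies had the same values in every marrow library. Among the higher ones these were Gm10243, Rpl35a-ps2, Rpl35a-ps3, Rpl35a-ps4 and Rpl35a-ps6 (log2 change 1.49 each), and Gm13841 and Gm8210 (5.97 each). Rps13-ps1 had no reads in the 3 libraries with G-CSF alone, against 37.7 and 54.0 CPM untreated, but was also low with ZA (0.551 and 0.0 CPM). Gm9493, a copy of Rps7, had 0.288, 0.636 and 1.60 CPM with G-CSF, against 56.7 and 36.4 CPM untreated. In run 1 precursors the shares in copies lay close together under all treatments: the median share in copies was 10.7% to 14.4% in all 8 libraries, Rps2-ps10 was at 2.88 to 7.43 CPM, and Rps26-ps1 at 0.495 to 2.50 CPM, G-CSF libraries included. Whether the reads in the copies are transcripts of the copies was not tested, and in whole marrow G-CSF and any other difference between these 5 libraries and the other 4 cannot be told apart.

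Tested on own reads, G-CSF against untreated marrow gave 14 called members of 78 tested, 5 higher and 9 lower, where 11.8% of all genes tested were called. The 4 lower members with the largest change were Rps2 (log2 change -4.65, SE 0.366, edgeR adjusted p 0.000158), Rps26 (-2.93, SE 0.283, adjusted p 0.000346), Rpl3 (-2.36, SE 0.161, adjusted p 4.22e-05) and Rps18 (-1.99, SE 0.186, adjusted p 0.000266). The 4 higher were Rpl27 (2.35, SE 0.474, adjusted p 0.016), Rps20 (0.91, SE 0.173, adjusted p 0.011), Rpl36a (0.86, SE 0.173, adjusted p 0.0137) and Rpl28 (0.85, SE 0.228, adjusted p 0.0416). The other called members were Rpl26, Rpl35a, Rpl29, Rpl21 and Rps7, lower by log2 changes of -1.54 to -0.77, and Rpl10a, higher at 0.71. The median over the members was 0.04, beside 0.01 over all genes tested. Rpl10l and Rpl39l did not pass the low count filter in marrow.

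With the reads of the copies added to each member, 12.4% of all genes were called and of the members 2, with no call shared with those from own reads in the same direction. Rps2 was higher (0.82, SE 0.195, edgeR adjusted p 0.0261) and Rps14 lower (-1.14, SE 0.318, adjusted p 0.0473). Rps26 came to 0.69 (SE 0.198, adjusted p 0.0513), Rpl3 to -0.04 (SE 0.175, adjusted p 0.908), Rps18 to -0.26 (SE 0.256, adjusted p 0.54) and Rpl27 to -0.06 (SE 0.182, adjusted p 0.865), so none of these 4 kept a call. Marker sums and the scaling moved with the groups. The erythroid markers summed to 132725 to 145760 CPM with both agents, 177261 to 208497 CPM with G-CSF, 246178 to 267056 CPM with ZA and 274391 to 296788 CPM untreated, with all 15 genes above 0 in every library. The 8 neutrophil precursor genes summed to 3915 to 4375 CPM with G-CSF, against 1615 to 1682 CPM untreated. The 14 cell cycle genes summed to 4663 to 5051 CPM, against 3242 to 4144 CPM, and the 10 T and NK cell genes to 175 to 203 CPM, against 93.6 to 101 CPM. Up to 2 of these 10 genes were at 0 in a library with G-CSF, and 0 of them untreated. Under library totals alone, without TMM, the median was 0.44 over all genes and 0.53 over the members with copies, and 38 members were called higher and 0 lower, where 25.3% of all genes were called. The part of these cell types in the results was not tested, and in a bulk sample fewer cells of a type and less RNA per cell cannot be told apart.

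**Figure D3:**
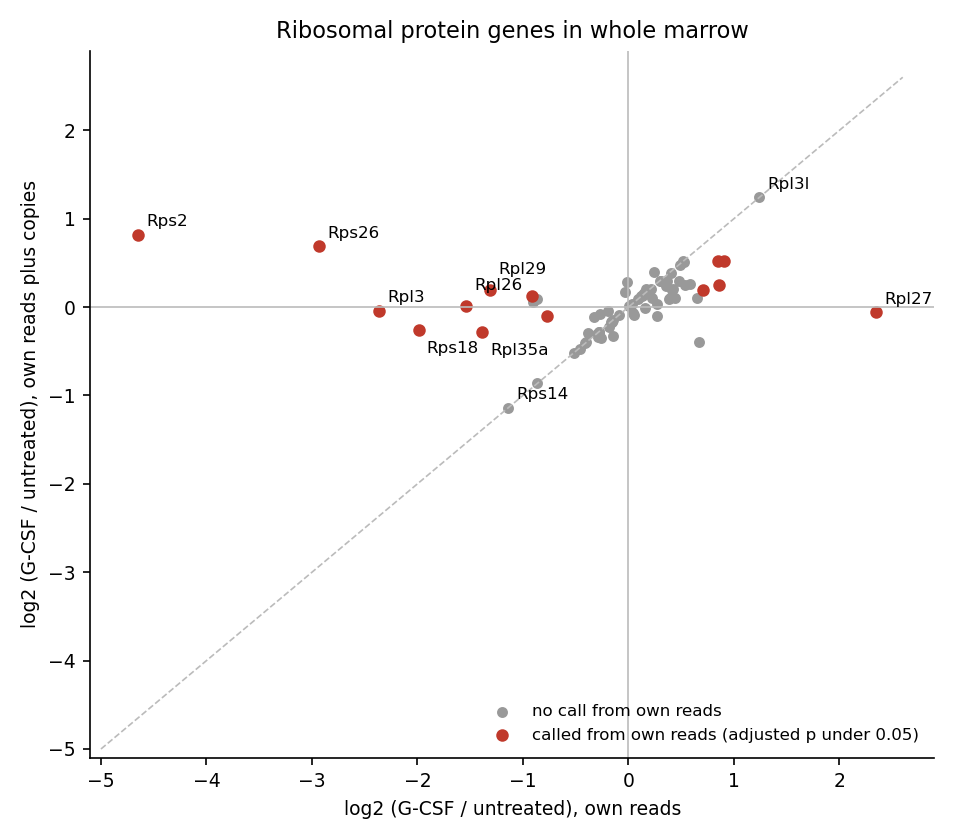
Each point is 1 of 78 members in whole marrow; the horizontal axis is the log2 change with G-CSF over untreated from own reads and the vertical axis the same with the reads of copies added, red where own reads gave a call. Rps2, Rps26, Rpl3, Rps18 and Rpl27 lie far from the dashed line of equal values, at 0.82, 0.69, -0.04, -0.26 and -0.06 with copies added.

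Of 16 tested members fixed by their role, 0 were called with G-CSF over untreated once copies were added, from -0.41 for Rps19 to 1.24 for Rpl3l, which had 0.963, 1.04 and 0.755 CPM with G-CSF, against 0.452 and 0.327 CPM untreated (SE 0.679, edgeR adjusted p 0.254). Rps19, the member most often mutated in Diamond-Blackfan anaemia, had 563, 437 and 310 CPM with G-CSF, against 693 and 466 CPM untreated, and the groups overlapped. Its log2 change was -0.41 (SE 0.244, edgeR adjusted p 0.299), and that of Rps24 was -0.16 (SE 0.23, adjusted p 0.683). Rps6, the substrate of S6 kinase, had 1391, 1284 and 1128 CPM with G-CSF, against 1184 and 962 CPM untreated (0.24, SE 0.158, adjusted p 0.343). Rps4x, encoded on the X chromosome, was at 0.52 (SE 0.157, adjusted p 0.0577). The stalk proteins were at -0.08 (Rplp0, SE 0.191), 0.16 (Rplp1, SE 0.206) and 0.14 (Rplp2, SE 0.261).

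ZA alone moved no member past the threshold. Against untreated marrow 0 of 78 members were called by edgeR, 1 had an unadjusted p under 0.05, where 9.46% of all genes did, and 0.0339% of all genes were called. The members' median log2 change was -0.02 beside 0.01 for all genes. With copies added, the 16 tested members fixed by role ran from -0.28 for Rpl5 to 1.32 for Rpl3l (SE 0.732, edgeR adjusted p 0.575). The 2 ZA libraries of Rps19 had 527 and 530 CPM, copies included, between the untreated 693 and 466 CPM.

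With both agents, members were lower than in untreated marrow at the scale of TMM. From own reads 16 of 78 members were called lower and 0 higher, where 7.72% of all genes were called in either direction, and the median was -0.36 beside -0.01 for all genes. With copies added, 9 members were called lower and 0 higher, where 7.9% of all genes were called, and the median was -0.35, with 65 of 78 values below 0. Leaving out 1 library changed the 16 calls from own reads to 8 (without combined 1), 7 (without combined 3) or 8 (without untreated 1). 7 of the 9 were also called lower from own reads: Rps14, Rpl9, Rpl13a, Rps19, Rps3, Rpl34 and Rpl17. The other 2 were Rpl41 and Rpl5.

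Rps14, a protein of the small subunit platform whose human gene lies in the segment lost in the 5q- syndrome, had 257 and 272 CPM with both agents, copies included, against 972 and 967 CPM with ZA and 1372 and 959 CPM untreated. The 3 libraries with G-CSF alone had 716, 589 and 287 CPM, the lowest of them close to the libraries with both agents. The log2 change with both agents over untreated was -2.14 (SE 0.368, edgeR adjusted p 0.0103). Rpl41 had 347 and 342 CPM with both agents, against 1507 and 1010 CPM untreated (-1.87, SE 0.47, adjusted p 0.0428), and with G-CSF alone 1125, 627 and 322 CPM.

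Rpl9, of the large subunit, had 250 and 244 CPM with both agents, against 780 and 537 CPM untreated (-1.41, SE 0.243, edgeR adjusted p 0.0101). Rpl13a, which in human monocytes also leaves the ribosome to silence inflammatory mRNAs, had 577 and 710 CPM, against 1869 and 1301 CPM untreated (-1.30, SE 0.262, adjusted p 0.0201). For both genes the groups did not overlap, but this does not set them apart, as members that were not called, such as Rpl11 and Rps24, separated too. In limma on log2(TPM + 1), from own reads, Rps14 was at -0.91 (adjusted p 0.0607) and Rps19 at 0.10 (adjusted p 0.808), where 41.5% of all genes were called. Rps19 had 255 and 275 CPM, against 693 and 466 CPM untreated (-1.13, SE 0.273, adjusted p 0.0371), and Rpl5 473 and 533 CPM, against 1170 and 921 CPM (-1.06, SE 0.236, adjusted p 0.0279). Rps3, which lines the mRNA entry, was at -1.07 (SE 0.231, adjusted p 0.0259), Rpl34 at -1.10 (SE 0.267, adjusted p 0.0376) and Rpl17, beside the exit tunnel, at -1.08 (SE 0.215, adjusted p 0.0189).

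Of the 16 tested members fixed by role, Rps19 and Rpl5 were the 2 called, copies included. Rpl3l, at 1.77 and 2.16 CPM with both agents, against 0.452 and 0.327 CPM untreated, was at 2.32 (SE 0.702, edgeR adjusted p 0.0769). Rpl11, the partner of Rpl5, was at -0.59 (SE 0.215, edgeR adjusted p 0.127), Rps24 at -0.89 (SE 0.255, adjusted p 0.0652) and Rpl35a, also mutated in Diamond-Blackfan anaemia, at -0.91 (SE 0.311, adjusted p 0.108). The stalk proteins were at -0.46 (Rplp0, SE 0.21), -0.24 (Rplp1, SE 0.225) and -0.23 (Rplp2, SE 0.285), and Rpsa, the laminin receptor precursor, at -0.35 (SE 0.183). Rps6 had 991 and 854 CPM with both agents, against 1184 and 962 CPM untreated (-0.22, SE 0.172, adjusted p 0.471). Rps27l, a target of p53, had 50.9 and 39.6 CPM, against 94.0 and 57.3 CPM (-0.74, SE 0.289, adjusted p 0.151). Rpl22, needed for T cell development in the mouse, was at -0.33 (SE 0.234).

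These calls depend on the scaling, and marker sums moved with them. With both agents the erythroid sum was the lowest of the 4 groups. The monocyte and macrophage sum also lay below untreated marrow (4278 to 4837 CPM against 5624 to 6539 CPM). The mature neutrophil sum overlapped it (26594 to 27975 CPM against 26082 to 30915 CPM). Several other sums lay above those of untreated marrow: 5869 to 5993 CPM against 3242 to 4144 CPM for cell cycle genes and 1836 to 1866 CPM against 1045 to 1169 CPM for B lineage genes. Stem and progenitor genes had 559 to 588 CPM against 206 to 390 CPM, and neutrophil precursor genes 3178 to 3428 CPM against 1615 to 1682 CPM. The part of these cell types in the members' values was not tested. Under library totals alone the median of all genes was 0.59 and that of the members, copies included, 0.29, with 19 members called higher and 3 lower, where 27.3% of all genes were called. A scaling shifts all genes alike, so the gap between the 2 medians is no separate evidence under the second scaling. Only Rps14 (-1.50, edgeR adjusted p 0.0125), Rpl9 (-0.78, adjusted p 0.0175) and Rpl13a (-0.66, adjusted p 0.0387) were called lower under both, and Rps2 was higher under library totals (1.12, adjusted p 0.002).

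**Figure D4:**
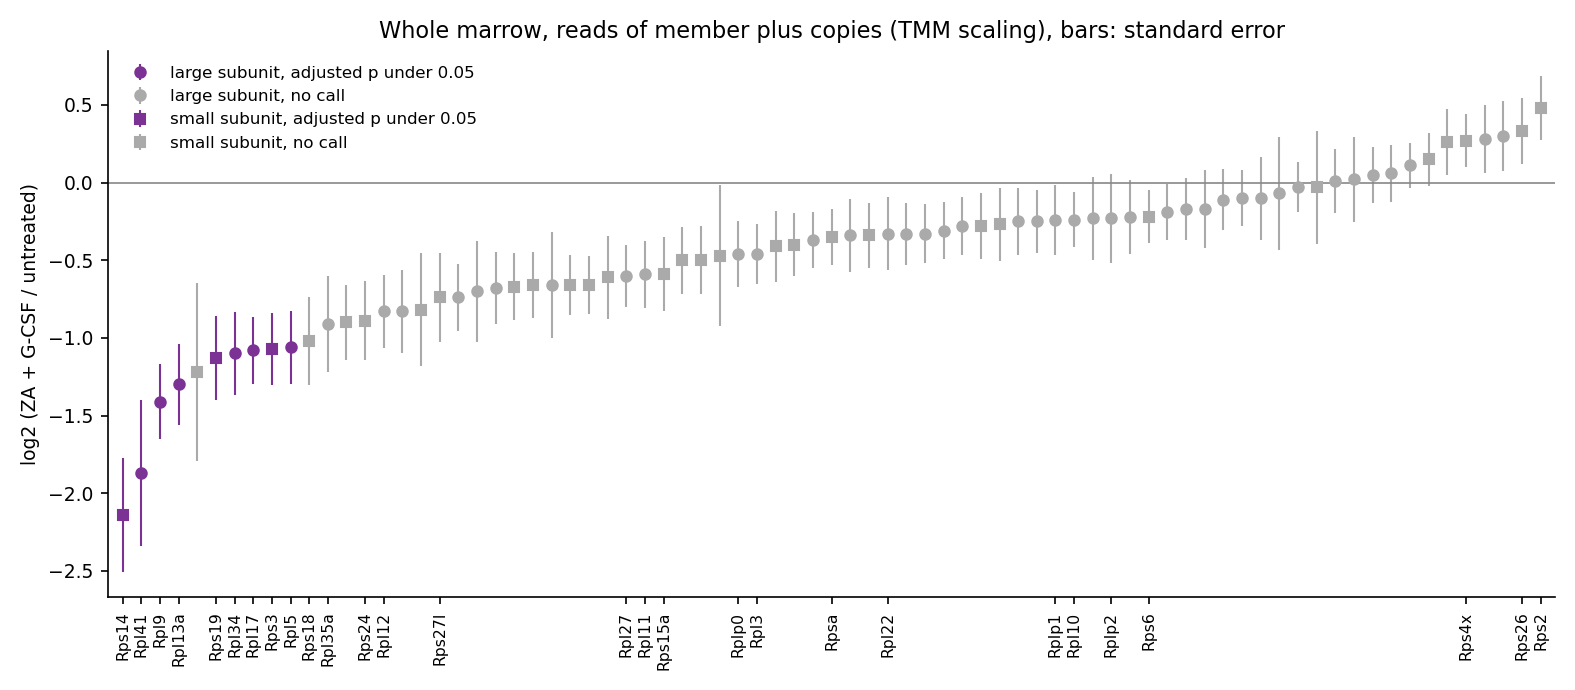
Log2 change of 77 members with both agents over untreated whole marrow, reads of copies included, under TMM scaling, with standard errors as bars; circles are large subunit members, squares small subunit members, purple the 9 with an adjusted p under 0.05. The values run from -2.14 for Rps14 to 0.48 for Rps2, with large and small subunit members mixed along the order (Rpl3l, tested but at 0.327 to 2.16 CPM, is not drawn, and only members named in the text are labelled).

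Rps14 and Rpl9 were also lower with both agents than with ZA alone, a comparison that shares the libraries given both agents. From own reads 12 members were called lower and 0 higher, where 4.33% of all genes were called, among them Rps2 (-5.47, SE 0.453, edgeR adjusted p 0.000291), Rpl3 (-2.87, SE 0.19, adjusted p 4.61e-05), Rps18 (-2.46, SE 0.216, adjusted p 0.000274) and Rpl29 (-1.91, SE 0.152, adjusted p 0.000148). Without combined 3 the count was 6, and without ZA 2 it was 7. With copies added, 2 members were called, where 4.23% of all genes were, Rps14 (-1.87, SE 0.365, adjusted p 0.0226) and Rpl9 (-1.12, SE 0.241, adjusted p 0.0334). Without TMM, Rps14 was at -1.46 (adjusted p 0.0322) and Rpl9 at -0.71 (adjusted p 0.0547). The copies included, Rps2 was at 0.30 (SE 0.208, adjusted p 0.53) and Rps26 at 0.05 (SE 0.212, adjusted p 0.941).

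Between both agents and G-CSF alone, no member passed the threshold in marrow. 0 of 78 were called by edgeR, where 0.00679% of all genes were, but 75 of 78 log2 changes were below 0, with a median of -0.42 beside -0.01 for all genes, and 31 had an unadjusted p under 0.05, where 10.4% of all genes did. The members share the libraries and the scaling and are not 78 separate observations of this direction. DESeq2 called 7, and without G-CSF 3 edgeR called 1. With copies added 77 of 78 were below 0 (median -0.46), and under library totals with copies 74 of 78 were (median -0.27 beside 0.17 for all genes). Rpl9 had 250 and 244 CPM with both agents, against 557, 513 and 353 CPM with G-CSF (-0.94, SE 0.224, edgeR adjusted p 0.257), and Rpl17 496 and 410 CPM, against 936, 858 and 653 CPM (-0.85, SE 0.199, adjusted p 0.255). For these 2 members the groups did not overlap. Nor did they for Rps14, with 257 and 272 CPM against 716, 589 and 287 CPM, where the gap was narrow. Other members, such as Rpl10 and Rpl13a, separated too, and the share that did so was not counted over the members or all genes.

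The interaction, that is, the change with both agents minus the sum of the separate log2 changes, was called for no member. 0 of 78 were called, where 0.00679% of all genes were, and 12 had an unadjusted p under 0.05, where 11.8% of all genes did. The median was -0.45 beside -0.06 for all genes, with 75 of 78 below 0 from own reads and 78 of 78 with copies. The 2 values farthest from 0 were those of Rpl27 (-1.96, SE 0.652, edgeR adjusted p 0.337) and Rps26 (1.56, SE 0.412, adjusted p 0.239) from own reads, which came to -0.40 (SE 0.271, adjusted p 0.576) and -0.64 (SE 0.289, adjusted p 0.418) with copies.

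In run 1 precursors no member passed the threshold between treatments. Both agents against G-CSF gave 0 called members of 79, where 0.0% of all genes were called, and 9 members had an unadjusted p under 0.05, where 6.95% of all genes did. The median was -0.11 beside 0.01 for all genes, and 74 of 79 values were below 0. Rps14, copies included, had 769, 802 and 743 CPM with both agents, against 834, 889 and 908 CPM with G-CSF, and 777 CPM with ZA and 862 CPM untreated. The 3 libraries with both agents lay below the 3 with G-CSF, at a log2 change of -0.18 (SE 0.06, edgeR adjusted p 0.691) from own reads, where the marrow value was -1.0 (SE 0.34, adjusted p 0.381); the difference between the 2 was not tested.

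Precursor libraries with G-CSF were also set against those without it. 0 of 79 members were called, where 0.0% of all genes were, 2 had an unadjusted p under 0.05, where 3.63% of all genes did, and the median was 0.02 for the members and 0.02 for all genes. Rps2, copies included, had 1420, 1368 and 1336 CPM with both agents and 1322, 1478 and 1558 CPM with G-CSF, against 1515 CPM with ZA and 1456 CPM untreated, all in 1 range. The ZA and the untreated group have 1 library each, whose spread was taken to be that of the others.

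Precursors against whole marrow gave the most calls. These 8 libraries were scaled on their own, so their CPM differ from those above. With treatment as a term, 3 members were called higher and 28 lower of 78, where 43.8% of all genes were called; with copies 1 was higher and 28 lower, where 44.4% were. Leaving out 1 library changed the 31 calls from own reads to 17 (without marrow G-CSF 2), 14 (without marrow ZA 2) or 15 (without precursor ZA 3). The share of members called was thus near that of all genes. The median was -0.19 from own reads and -0.22 with copies, beside 0.06 for all genes. Under library totals alone, where 59.5% of all genes were called, 35 members were higher and 1 lower, with a median of 0.40 beside 0.65 for all genes. The members' direction against 0 thus depends on the scaling, which shifts all genes alike.

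From own reads, the lowest called members were Rpl27 (-1.88, SE 0.34, edgeR adjusted p 0.00383), Rpl41 (-0.76, SE 0.171, adjusted p 0.0101), Rpl17 (-0.75, SE 0.102, adjusted p 0.00101) and Rpl34 (-0.74, SE 0.09, adjusted p 0.000641). The 3 higher were Rpl5 (0.87, SE 0.201, adjusted p 0.0108), Rpl10 (0.66, SE 0.111, adjusted p 0.00263) and Rpl12 (0.53, SE 0.142, adjusted p 0.0191). With copies, Rpl5 and Rpl12 were each at -0.09 and Rpl27 at -0.48 (SE 0.104, adjusted p 0.00783). Of the 28 members called lower from own reads, 24 were also called lower with copies, among them Rplp1 (-0.50, SE 0.117, adjusted p 0.0114), Rps15a (-0.52, SE 0.10, adjusted p 0.00395) and Rps27l (-0.52, SE 0.167, adjusted p 0.0387). Of the 28 called lower with copies under TMM, 0 were called lower under library totals. In limma on log2(TPM + 1), from own reads, Rplp1 (0.38), Rps27l (0.35), Rps24 (0.18), Rpl34 (0.13), Rpl17 (0.12) and Rpl41 (0.12) were above 0. Rpl10, which is fitted in the last steps of large subunit assembly, was the 1 member still called higher.

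Rpl10 had 1032, 1089 and 1155 CPM in precursors with G-CSF, 1011 CPM with ZA and 1030 CPM untreated, copies included, against 923, 896 and 746 CPM in marrow with G-CSF, ZA and no treatment. The groups did not overlap, and the log2 change was 0.29 (SE 0.10, edgeR adjusted p 0.049) under TMM and 0.89 (adjusted p 0.000562) under library totals, higher under both. Rpl17 had 585, 635 and 671 CPM with G-CSF, 585 CPM with ZA and 610 CPM untreated in precursors, against 1074, 1007 and 1032 CPM in marrow (-0.77, SE 0.09, adjusted p 0.000473), and under library totals was at -0.17 (adjusted p 0.232). Rps24, of the small subunit, was at -0.69 (SE 0.09, adjusted p 0.000903) under TMM and -0.09 (adjusted p 0.523) under library totals. Rps19 was at 0.11 (SE 0.117, adjusted p 0.46) under TMM and 0.72 (adjusted p 0.00116) under library totals. Rps6 had 1153, 1245 and 1384 CPM with G-CSF, 1251 CPM with ZA and 1200 CPM untreated in precursors, against 1597, 1311 and 1198 CPM in marrow, and the groups overlapped. Rpl11 was at -0.18 (SE 0.09, adjusted p 0.147) and Rpl35a at -0.58 (SE 0.103, adjusted p 0.00336).

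**Figure D5:**
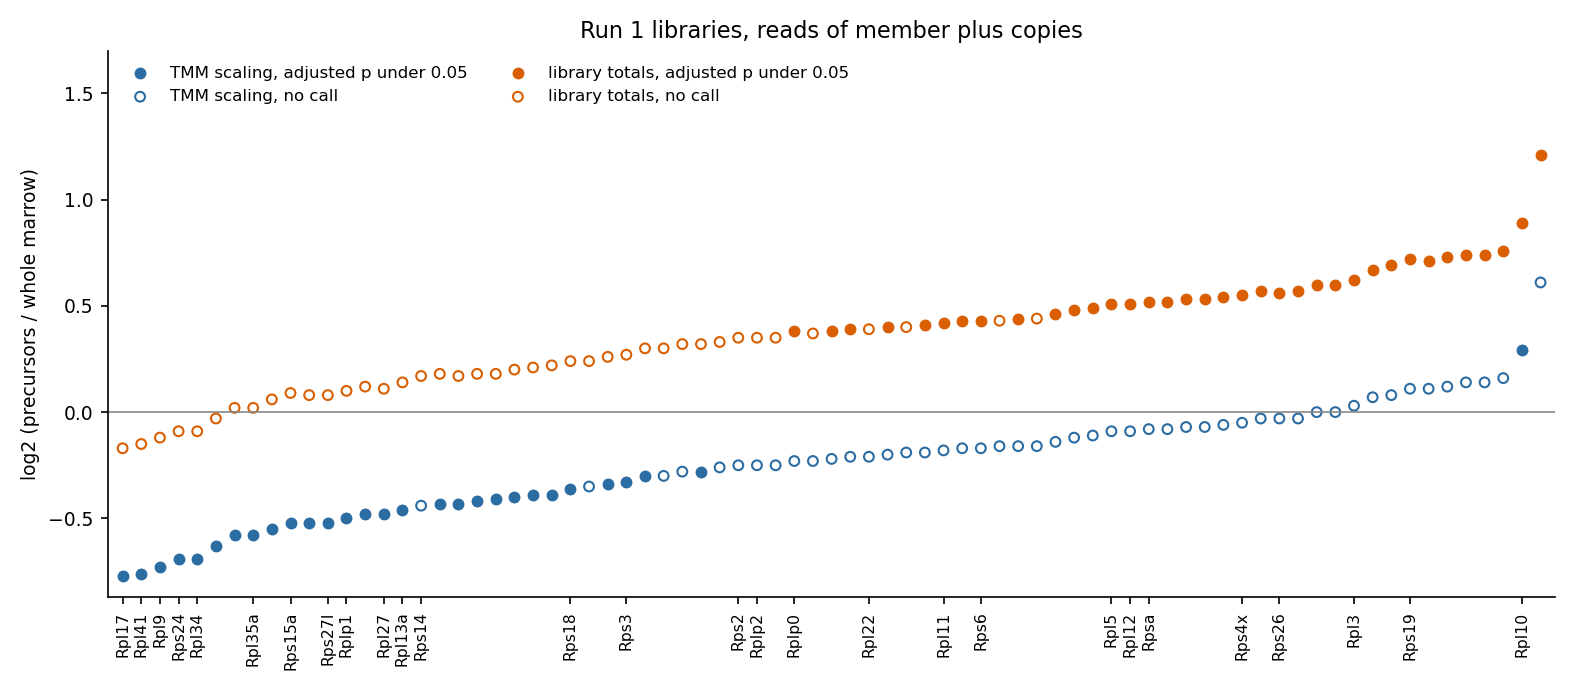
Log2 change of 77 members in run 1 precursors over run 1 whole marrow, reads of copies included, in the order of the TMM values; blue is TMM scaling, orange library totals, filled points have an adjusted p under 0.05. With TMM 28 members are called lower and 1 higher, with library totals 36 are called higher and 0 lower, where 60.4% of all genes are called (Rpl3l, at 0.253 to 1.30 CPM, is not drawn, and only members named in the text are labelled).

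The balance between the subunits depended on the copies as well. Own reads of large over small subunit members had a ratio of 1.48 and 1.45 in marrow with both agents and 1.43, 1.42 and 1.44 with G-CSF, against 1.34 and 1.39 with ZA and 1.32 and 1.33 untreated. With copies added the ratio was 1.43 and 1.44 with both agents and 1.37, 1.36 and 1.37 with G-CSF, against 1.42 and 1.43 with ZA and 1.39 and 1.42 untreated. Before the addition the 5 libraries given G-CSF had the highest ratios, and after it the 3 with G-CSF alone had the lowest.

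Lists of genes that make and serve ribosomes are read against 11.8% of all genes called with G-CSF over untreated marrow and 7.72% with both agents. Of 44 tested genes of ribosome assembly and rRNA synthesis, 3 rose and 0 fell with G-CSF over untreated marrow (median 0.31): Ncl, nucleolin (1.41, SE 0.167, edgeR adjusted p 0.00101), Nop58, a core protein of box C/D snoRNPs (0.79, SE 0.188, adjusted p 0.0271), and Nolc1 (0.77, SE 0.141, adjusted p 0.00904). With both agents Ncl alone was called (1.04, SE 0.176, adjusted p 0.00944). Of 36 translation factors and other TOP mRNAs, 3 rose and 1 fell with G-CSF, and 0 rose and 2 fell with both agents: Eif5 (-1.52, SE 0.187, adjusted p 0.00176) and Eef1a1, the main elongation factor, which also has many copies (-0.68, SE 0.177, adjusted p 0.0492). Of 78 mitochondrial ribosomal proteins, 2 rose and 0 fell in each of these comparisons, and of 29 genes of mTOR, Myc and p53 control, 0 rose and 1 fell in each, Mxd1, an antagonist of Myc.

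7 ribosomal proteins that the naming rule leaves out, among them Rps3a1, Fau, Rpl22l1 and Rack1, had a median of -0.47 with both agents over untreated marrow, with 0 calls, beside -0.36 for the members. In precursors against marrow 3 of them fell: Fau, which encodes Rps30 fused to a ubiquitin-like protein (-1.16, SE 0.141, edgeR adjusted p 0.000587), Rpl22l1 (-0.72, SE 0.116, adjusted p 0.00223) and Rack1, the kinase scaffold of the small subunit (-0.36, SE 0.106, adjusted p 0.0268). In that comparison, where 43.8% of all genes were called, 9 of 44 assembly genes rose and 4 fell, and 6 of 78 mitochondrial ribosomal proteins rose and 16 fell.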

How the data were processed

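The authors deposited estimated counts and TPM per gene for whole marrow and for precursors; the submitters' processing notes name Salmon, DESeq2 1.16.1 and mm10, while the annotation release and whether counting used strand are not given in the sources used here. The deposited TPM were used for levels between genes and, as log2(TPM + 1), in limma 3.58.1. Estimated counts were rounded to whole numbers, filtered (filterByExpr, minimum count 10, total 15), scaled by TMM and tested with edgeR 4.0.16 in R 4.3.3 (robust quasi-likelihood F test, Benjamini-Hochberg over all genes tested, threshold 0.05). The marrow fit used all 9 libraries, the precursor fit all 8 of run 1, and precursors against marrow 5 and 3 libraries of untreated, G-CSF and ZA, with treatment as a term. Only the edgeR fit and test were tried on simulated data, in a plain comparison between groups. The treatment term, the interaction and the addition of copies were not tried there.

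Ensembl IDs were matched to GENCODE vM21 (99.1% matched in each table). Copies are genes whose transcript aligned to a member's at 90% identity or more over at least 80% of its length. Per comparison, up to 4 called members in each direction with the largest change were named, beside members fixed by role; members and lists were chosen with earlier results of these data known. Others named for their values were chosen after these were seen, as was the addition of all copies. Alternatives were library totals, no low count filter, named pseudogene reads or all copies added, DESeq2 1.42.0, limma, a replicate block and leaving out each library. Further ones were run 2 libraries for precursors against marrow, and libraries of both runs with a run term for the precursor treatments. Same-numbered libraries did not deviate together within marrow (correlations of -0.039 to 0.112) or within precursors (-0.032 to -0.015), so the numbers were not taken to pair them there. Same-numbered precursor and marrow libraries were not checked against each other. Run 2 was left out of the main tests because several of its libraries go against their labels in haemoglobin. Marker sums are CPM of library totals, without TMM. Values of a few genes are not reported here.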

Additional observations from a re-analysis of the deposited data

How the results depend on the processing

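The count of members called moved with copies, scaling, filter and tool. The share of all genes called in the same setting stands in brackets. Each count joins higher and lower calls, so a larger count need not mean more calls in the direction of the main test. For G-CSF against untreated marrow (14 called, 11.8%) it was 43 under library totals (25.5%), 9 with the reads of named pseudogenes added (12.5%), 2 with all copies (12.4%), 38 with all copies under library totals (25.3%) and 40 with limma (21.1%). For both agents against untreated (16, 7.72%) it was 35 under library totals (27.4%), 30 with no low count filter (8.92%), 9 with all copies (7.9%), 39 with limma (41.5%) and 29 with DESeq2 (11.9%). The 16 were all lower, while the members' own share of TPM was 4.69% and 4.69% with both agents, against 2.4% and 3.99% untreated. For both agents against ZA (12, 4.33%) it was 20 with no filter (5.58%), 7 with named pseudogenes (4.34%), 2 with all copies (4.23%), 4 with all copies under library totals (5.57%) and 4 with limma (5.07%). For both agents against G-CSF (0) it was 14 with no filter (1.96%), 1 with limma (0.265%) and 7 with DESeq2 (1.4%), for the interaction (0) 2 with no filter (2.62%) and 1 with DESeq2 (1.74%), and for ZA (0) 1 with no filter (2.23%). For precursors against marrow (31, 43.8%) it was 19 with no filter (26.0%), 51 with limma (66.0%) and 0 with run 2 libraries (0.0%), whose tissue labels are in doubt. With the replicate block it was 6 (19.1%), and whether the numbers pair precursor with marrow libraries was not checked. The block moved no other count by over 1.5 times. Leaving out 1 library gave 10 to 16 calls for G-CSF, 0 to 0 for ZA, 7 to 23 for both agents against untreated, 0 to 1 against G-CSF, 6 to 16 against ZA, 0 to 0 for the interaction and in precursors, and 14 to 32 for precursors against marrow. Adding all copies was chosen after seeing the data.

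Signs turned with copies, scaling, tool and the libraries used. For G-CSF against untreated, Rps2 was at 0.83 with named pseudogenes, 0.82 with all copies and 1.27 with all copies under library totals, and Rps26 at 0.69, 0.69 and 1.12; Rpl27 was at -0.06 with all copies, and under library totals with copies Rpl3 was at 0.40, Rps18 at 0.18 and Rpl35a at 0.15. For both agents against untreated, Rps2 was at 0.48, 0.48 and 1.12 in the same settings, Rpl3 at 0.16 with copies under library totals and Rps19 at 0.10 with limma. Against ZA, Rps2 was at 0.29, 0.30 and 0.72, Rps26 at 0.05, 0.05 and 0.47, and, with copies under library totals, Rpl3 at 0.09 and Rpl29 at 0.18. For precursors against marrow, all copies put Rpl5 and Rpl12 at -0.09, and with library totals Rpl27 at 0.11, Rplp1 at 0.10 and Rps27l at 0.08. Library totals alone gave 0.11 for Rplp1 and 0.07 for Rps27l. Run 2 libraries gave -0.39 for Rpl5, -0.18 for Rpl10, -0.05 for Rpl12, 0.45 for Rpl27, 0.13 for Rpl41, 0.08 for Rpl17, 0.13 for Rpl34, 0.03 for Rps24 and 0.13 for Rps27l; limma gave 0.12 for Rpl41, 0.12 for Rpl17, 0.13 for Rpl34, 0.38 for Rplp1, 0.18 for Rps24 and 0.35 for Rps27l. Several run 2 libraries go against their tissue labels, so both tissues may stand on each side, and the run 2 values cannot decide these signs. The causes were not tested beyond what each setting changes. With 2 or 3 marrow libraries a group, a member that missed the threshold is not shown to be unchanged.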

Other observations

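Run 2 of the precursor table went against its tissue labels in several libraries. Of 15 run 2 libraries labelled as precursors, 7 had over 10000 CPM of the haemoglobin gene Hbb-bs (range over all 15, 175 to 150252 CPM), against 82.4 to 2941 CPM in the 8 run 1 precursor libraries. 2 of the 3 run 2 libraries labelled as marrow, untreated 2 and G-CSF 2, had 536 and 388 CPM, against 71655 to 123552 CPM in run 1 marrow. The run 2 library labelled as precursors, G-CSF 2, had 78058 CPM of Hbb-bs, 74.7 CPM of Csf1r and 34.0% of the family reads in copies, close to the 33.1% to 36.4% of whole marrow given G-CSF. The run 2 library labelled as marrow, G-CSF 2, had 486 CPM of Csf1r and 25.7% in copies, close to the run 1 precursors.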
